A study of Homo sapiens with 9 samples.

Results

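The genes described here are those of fatty acid oxidation, ketone body metabolism and the peroxisome. A list of 36 genes was chosen by name and role, with earlier results of these data known: 17 of mitochondrial beta-oxidation and ketone metabolism, 2 whose products act in both mitochondria and peroxisomes, 12 of the peroxisome and 5 targets or regulators of the PPAR-alpha program. Each gene was represented by the probe set of that gene alone with the highest mean log2 intensity over the 9 arrays. This gave 35 of the 36 genes, of 19775 genes in all; PEX13 was not analysed here.

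RNA came from Huh7 cells, an established human hepatocarcinoma line, and was hybridised to 9 whole-transcriptome arrays in 1 colour. All cells were transfected with 20 nM siRNA by lipofection. In 3 arrays the siRNA targeted DEGS1 (dihydroceramide desaturase, the last step of ceramide synthesis), in 3 the subunits of serine palmitoyltransferase (its entry step, labelled SPTLC123), and in 3 it was a scrambled sequence. The labels give a time of 72 h, while the treatment protocol adds medium with 1% serum at 72 h and collects the cells after a further 24 h; which of these holds was not settled. The 3 arrays of a group are labelled biological replicates of this 1 line, with nothing on separate cultures, so the p-values measure the spread between these samples. The comparisons ask which oxidation and peroxisome genes differ after silencing at the end of the pathway, after silencing at its entry, and between these knockdowns; both comparisons with scramble use the same 3 scramble arrays. In a bulk measurement, fewer cells that express a gene and less RNA per cell cannot be told apart.

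Mitochondria shorten acyl-CoA by repeated rounds of dehydrogenation, hydration, dehydrogenation and thiolysis, after the carnitine shuttle has brought the acyl groups across the membrane. Hepatocytes turn much of the acetyl-CoA formed into ketone bodies. Peroxisomes shorten very long and branched chains and bile acid intermediates, and peroxins build the organelle and import its enzymes. The nuclear receptor PPAR-alpha, bound to DNA with RXR, drives many genes of both organelles in liver.

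The targeted genes analysed here, DEGS1, SPTLC1 and SPTLC2, were low in the arrays labelled for them; the remaining subunit was not analysed here. DEGS1 averaged 5.00 in DEGS1 siRNA cells and 8.73 in scramble cells (log2 intensity, n = 3 each), and SPTLC1 averaged 8.67 in SPTLC123 cells and 10.94 in scramble cells. SPTLC2 measured 4.87, 5.22 and 5.13 in SPTLC123 cells and 5.97, 6.13 and 6.25 in scramble cells. All 10 measured hepatocyte markers exceeded the median probe set (log2 4.86) in every group. Their summed intensity ranged from 107453 to 110719 in DEGS1 cells, from 93084 to 98084 in SPTLC123 cells and from 109863 to 115673 in scramble cells. It was lowest in the SPTLC123 arrays. By limma (adjusted p under 0.05), 4 of the 10 markers were lower in SPTLC123 against scramble and 1 in DEGS1 against scramble. Of all genes, 4.63% and 5.04% were called lower in these comparisons. The part of these markers in the results was not tested. Of 8 measured markers of leukocytes, endothelium and fibroblasts, 4 exceeded that median and PTPRC, COL3A1 and DCN below it in every group, and the summed intensity was 447 to 523, 503 to 580 and 562 to 575 in DEGS1, SPTLC123 and scramble cells. Signal below that median may be close to background, where differences may be understated.

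Arrays differed in how well the 5' ends of transcripts were seen. The actin control probe sets gave 3' minus 5' log2 differences of 1.31 and 1.25 in DEGS1 replicates 2 and 3 and of 1.15 in SPTLC123 replicate 3, against 0.40 to 0.56 in the other 6 arrays. These 3 arrays are called the arrays with weak 5' signal. No scramble array was among them, so each comparison with scramble is also given without them, which leaves 1 DEGS1 array and 2 SPTLC123 arrays; that fit takes the spread of the single DEGS1 array to equal that of the other arrays.

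Promoter windows from RefSeq (GRCh38.p14; 250 bases before to 50 bases after the annotated start, read on the gene's strand) matched 27 of the 35 genes. Of these 27 genes, CPT1A, PEX3, PEX11A and PEX19 were called in at least 1 comparison, and their windows are shown; ACOX2, also called, is named only. Capitals mark matches on either strand to the GC box, whose letters are GGGCGG, to the ETS site, searched as CCGGAAG, to the box named CCAAT after its letters, and to the YY1 site, searched as AAGATGGC. They lie at chr11:68844228-68844527 (minus strand, CPT1A), chr6:143450555-143450854 (plus strand, PEX3), chr15:89690705-89691004 (minus strand, PEX11A) and chr1:160285084-160285383 (minus strand, PEX19, the first of 2 windows in the table).
CPT1A: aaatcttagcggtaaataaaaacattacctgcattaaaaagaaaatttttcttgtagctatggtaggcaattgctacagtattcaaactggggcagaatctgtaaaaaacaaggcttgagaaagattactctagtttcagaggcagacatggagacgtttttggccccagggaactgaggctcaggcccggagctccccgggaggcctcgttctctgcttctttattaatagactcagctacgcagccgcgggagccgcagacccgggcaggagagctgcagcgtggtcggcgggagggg
PEX3: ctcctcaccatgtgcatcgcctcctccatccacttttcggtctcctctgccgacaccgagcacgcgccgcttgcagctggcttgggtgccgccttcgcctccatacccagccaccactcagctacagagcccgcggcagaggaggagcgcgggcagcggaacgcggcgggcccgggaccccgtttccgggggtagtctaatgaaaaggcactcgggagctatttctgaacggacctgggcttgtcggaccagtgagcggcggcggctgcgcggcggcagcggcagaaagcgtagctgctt
PEX11A: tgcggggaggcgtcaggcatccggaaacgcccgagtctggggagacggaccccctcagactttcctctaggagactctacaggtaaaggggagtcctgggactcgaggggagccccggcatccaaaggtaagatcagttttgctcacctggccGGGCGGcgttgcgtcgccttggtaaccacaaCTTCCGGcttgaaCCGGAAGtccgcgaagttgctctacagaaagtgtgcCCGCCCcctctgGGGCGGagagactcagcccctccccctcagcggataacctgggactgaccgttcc
PEX19: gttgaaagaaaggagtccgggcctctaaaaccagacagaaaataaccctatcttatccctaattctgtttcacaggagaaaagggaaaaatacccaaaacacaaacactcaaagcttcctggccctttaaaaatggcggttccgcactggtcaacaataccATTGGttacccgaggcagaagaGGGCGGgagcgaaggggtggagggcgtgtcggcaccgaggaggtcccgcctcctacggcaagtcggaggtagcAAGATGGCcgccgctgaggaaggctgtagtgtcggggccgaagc

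The PEX11A window holds 3 GC boxes, whose first bases lie at -97, -17 and -5 from the start, and 2 ETS sites at -66 and -53. The PEX19 window holds a GC box at -67, a CCAAT box at -89 and a YY1 site at 7, inside the transcript. None of these letters occurs in the windows of CPT1A and PEX3. Over the 27 matched genes, 17 windows held a GC box, against 43.8% of all 27305 windows, and 6 held an ETS site, against 10.6%. A CCAAT box was in 6 of the 27, against 35.6% of all windows, and the YY1 site in 2, against 3%. The windows of the 27 genes had a median GC content of 64%, where that of all windows was 58%. The direct repeat bound by PPAR and RXR, which is AGGTCA written out again after any 1 base, was in none of the 27 and in 0.0256% of all windows, and the single half-site was in 1 of the 27, that of FABP1, and in 14% of all windows. The E-box, searched as CACGTG, the cAMP response element, searched as TGACGTCA, and the NRF1 site were in none of the 27, against 7.27%, 1.94% and 1.31% of all windows. These matches describe the letters only.

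Few of the 35 genes differed after either knockdown. In DEGS1 cells ACOX2, PEX3 and PEX11A, all peroxisomal, were lower than in scramble cells, and no gene of the list was called higher. In SPTLC123 cells CPT1A, the carnitine shuttle's entry enzyme, was higher and ACOX2 and PEX19 were lower. Between the knockdowns CPT1A and PEX11A were lower in DEGS1 cells. A gene was called where limma gave a Benjamini-Hochberg adjusted p under 0.05 over all 19775 genes.

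Set against all genes, these counts of called genes were not high. DEGS1 against scramble called 3 of 35 genes by limma, where 9.7% of all genes were called. The 3 called genes were all lower, where 4.66% of all genes were called higher and 5.04% lower. An unadjusted p under 0.05 was reached by 12 of the 35 genes and by 4877 of all 19775 genes. SPTLC123 against scramble called 3 of 35, where 9.94% of all genes were called. Of the 35, 1 was higher and 2 were lower, and of all genes 5.31% were higher and 4.63% lower (1051 and 915 genes, or 1306 and 695 with each array centred on its median). DEGS1 against SPTLC123 called 2 of 35, both lower, where 8.66% of all genes were called, 3.7% higher and 4.96% lower. The median log2 difference of the 35 genes was -0.12 for DEGS1 against scramble, where that of all genes was -0.01, and -0.09 for SPTLC123 against scramble, where that of all genes was -0.03. The 3 arrays of the groups did not overlap for 7, 8 and 8 of the 35 genes in the 3 comparisons, where this held for 26.3%, 28.9% and 25.5% of all genes.

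**Figure D1:**
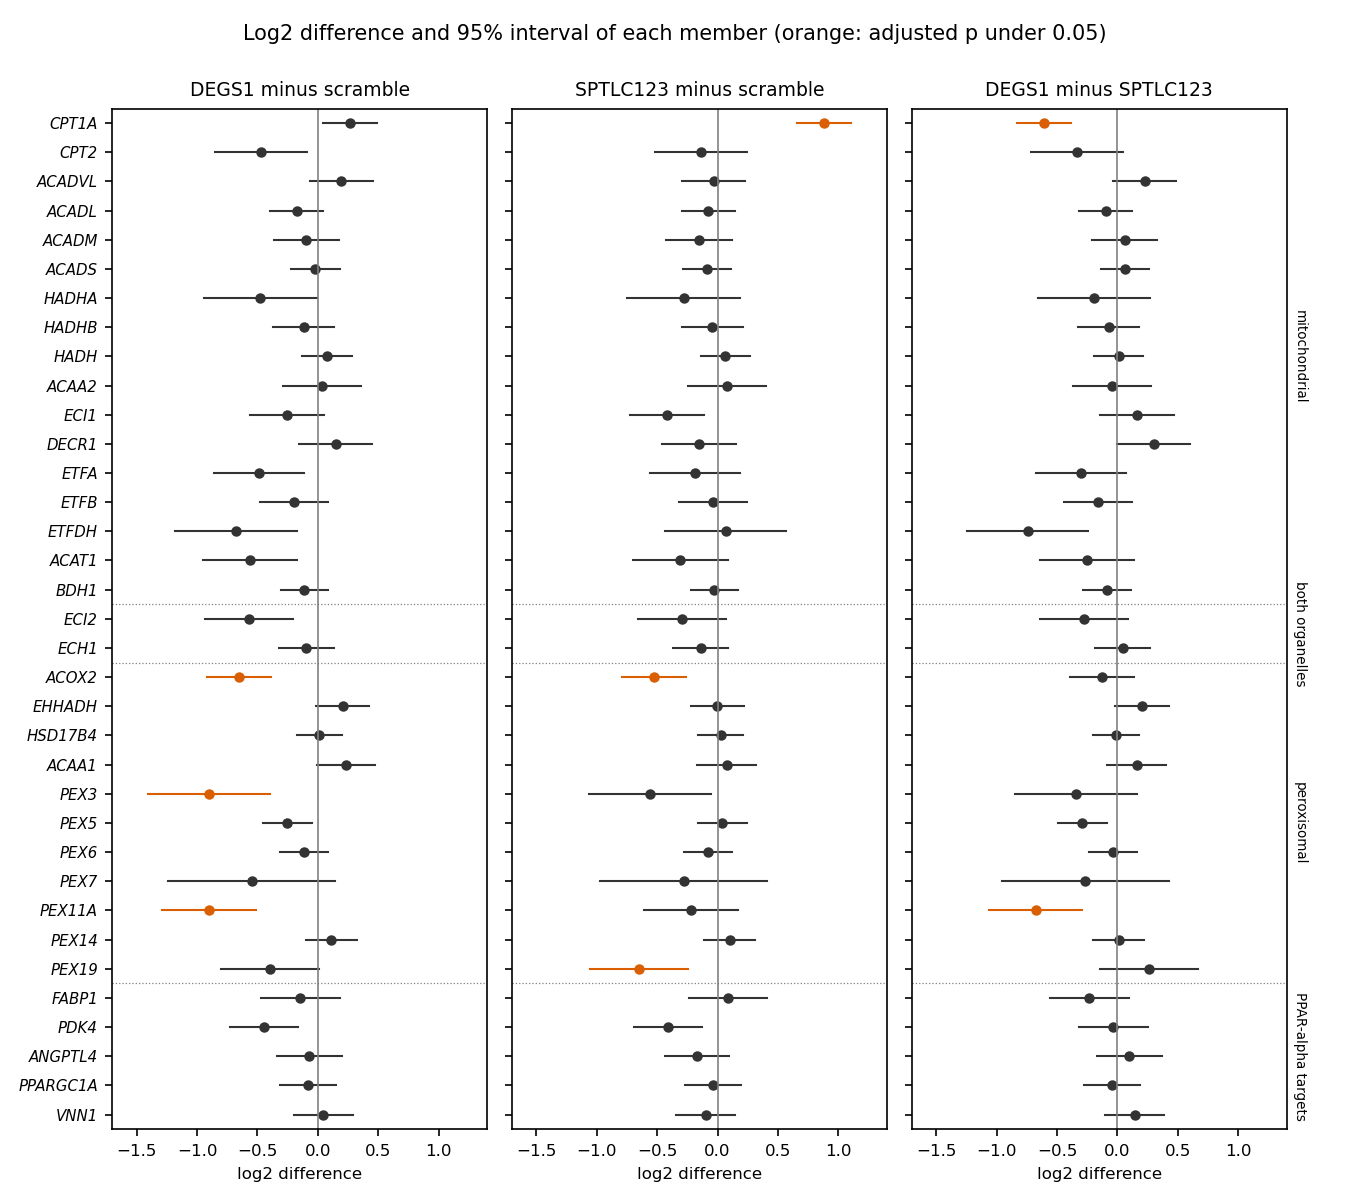
Log2 difference (x axis) of each of the 35 genes (rows, grouped by organelle) for DEGS1 minus scramble, SPTLC123 minus scramble and DEGS1 minus SPTLC123, with limma's 95% interval. Orange marks an adjusted p under 0.05: 3, 3 and 2 genes; most of the other intervals span 0.

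For most of the list the interval bounds the measured difference. The 95% interval lay within a change of 1 on the log2 scale in either direction for 31 genes in DEGS1 against scramble, 32 in SPTLC123 against scramble and 33 in DEGS1 against SPTLC123. These include ACADL, PDK4, PPARGC1A and VNN1, which lay below the median probe set in every group, where differences may be understated. The SD over 3 arrays had a median over the genes of 0.15 in DEGS1 cells, 0.14 in SPTLC123 cells and 0.14 in scramble cells.

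Of the 17 mitochondrial genes, limma called 0 in DEGS1 against scramble (6 at an unadjusted p under 0.05). It called CPT1A alone in the other comparisons. Over all 19775 genes, 9.7%, 9.94% and 8.66% were called in DEGS1 against scramble, SPTLC123 against scramble and DEGS1 against SPTLC123. An unadjusted p under 0.05 was reached by 4877 of them in DEGS1 against scramble. The median log2 differences of the 17 genes were -0.12 for DEGS1 against scramble, -0.08 for SPTLC123 against scramble and -0.08 for DEGS1 against SPTLC123.

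CPT1A couples acyl groups to carnitine at the outer mitochondrial membrane and sets the rate at which they enter. Its log2 intensity was 7.07, 7.08 and 6.94 in DEGS1 cells, 7.70, 7.71 and 7.50 in SPTLC123 cells and 6.88, 6.63 and 6.76 in scramble cells. The SPTLC123 arrays lay above all others, and the DEGS1 arrays lay between the other groups without overlapping them. CPT1A rose by 0.88 ± 0.10 on the log2 scale in SPTLC123 against scramble (SE; 1.84-fold; adjusted p = 0.000357, limma). In DEGS1 cells it was 0.27 ± 0.10 above scramble, which was not called (adjusted p = 0.126), and it was lower than in SPTLC123 cells by -0.61 ± 0.10 (adjusted p = 0.00414).

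The increase of CPT1A in SPTLC123 cells was as large without the arrays with weak 5' signal, at 0.95 (adjusted p = 0.00223). The difference between the knockdowns was -0.63 among the arrays with good 5' signal and -0.49 among those with weak signal; without the 3 arrays with weak signal it was not called (adjusted p = 0.0885). The gene has 3 other probe sets, dimmer than the one used, which gave 0.31, 0.03 and 0.19 for SPTLC123 against scramble, none of them called. With the mean of all 4 probe sets the difference was 0.35 and was not called (adjusted p = 0.0553), and that between the knockdowns was -0.29 (adjusted p = 0.103).

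CPT2, which hands the acyl group back to coenzyme A inside the mitochondrion, measured 8.71, 8.27 and 8.08 in DEGS1 cells, 8.85, 8.83 and 8.38 in SPTLC123 cells and 8.83, 8.97 and 8.67 in scramble cells. Its lowest values were those of the 3 arrays with weak 5' signal. It was -0.47 ± 0.17 in DEGS1 against scramble (adjusted p = 0.119), and -0.11 without those arrays. The other, dimmer CPT2 probe set gave -0.07 ± 0.10 in DEGS1 against scramble, not called.

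The acyl-CoA dehydrogenases carry out the first step of each round, for very long (ACADVL), long (ACADL), medium (ACADM) and short chains (ACADS). None of the 4 was called in any comparison by limma, and none passed an unadjusted p under 0.05. Their log2 differences were 0.19, -0.18, -0.09 and -0.02 in DEGS1 against scramble and between -0.15 and -0.03 in SPTLC123 against scramble. ACADL stayed under the median probe set on every array, at log2 values of 3.37 to 3.66.

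HADHA and HADHB form the trifunctional protein, which performs the later steps for long chains. HADHA measured 11.05, 10.23 and 10.31 in DEGS1 cells, 10.80, 10.97 and 10.41 in SPTLC123 cells and 10.81, 11.22 and 10.99 in scramble cells. Again the arrays with weak 5' signal were the low ones: the difference of -0.47 ± 0.21 in DEGS1 against scramble (adjusted p = 0.195) became 0.04 without them. HADHB gave -0.12 and -0.04 against scramble in DEGS1 and SPTLC123 cells. HADH, which oxidises short hydroxyacyl-CoA, gave 0.08 and 0.06. Its 2 other probe sets, slightly dimmer, gave -0.30 and -0.26 in DEGS1 cells and -0.21 and 0.12 in SPTLC123 cells, none called. The thiolase ACAA2 gave 0.04 and 0.08. A dimmer ACAA2 probe set gave 0.72 and 0.62, both called with every probe set tested on its own. Another dimmer set gave -0.75 and -0.38, not called. By the probe sets used, limma called none of these 4 genes in any comparison (1 passed an unadjusted p under 0.05, HADHA in DEGS1 against scramble).

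Unsaturated chains need isomerases and a reductase besides the 4 steps. ECI2, an enoyl-CoA isomerase found in both organelles, measured 10.05, 9.52 and 9.47 in DEGS1 cells, 10.06, 10.08 and 9.73 in SPTLC123 cells and 10.12, 10.46 and 10.18 in scramble cells. All DEGS1 arrays lay below all scramble arrays, and the difference of -0.57 ± 0.17 stopped just short of a call (adjusted p = 0.0522); without the arrays with weak 5' signal it was -0.20. ECI1, the mitochondrial isomerase, gave -0.25 in DEGS1 and -0.42 ± 0.14 in SPTLC123 cells against scramble (adjusted p = 0.295 and 0.0847). DECR1, dienoyl-CoA reductase, gave 0.15 and -0.16, and ECH1, dienoyl-CoA isomerase, -0.10 and -0.14, none of them called.

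Electrons from the dehydrogenases pass through the electron transfer flavoprotein, made of ETFA and ETFB, to ETFDH and so to ubiquinone. ETFDH measured 6.98, 6.32 and 6.17 in DEGS1 cells, 7.38, 7.44 and 6.88 in SPTLC123 cells and 6.93, 7.54 and 7.03 in scramble cells. It was -0.68 ± 0.23 in DEGS1 against scramble (adjusted p = 0.0902) and -0.74 ± 0.23 in DEGS1 against SPTLC123 (adjusted p = 0.0723), neither of them called. Of the 35 genes this was the largest difference between the knockdowns, yet ranges over the DEGS1 and SPTLC123 arrays overlapped at 6.98 and 6.88. Without the arrays with weak 5' signal the values were -0.19 and -0.43. ETFA was -0.49 ± 0.17 in DEGS1 against scramble (adjusted p = 0.0985) and -0.07 without those arrays, and ETFB was -0.20.

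In ketone metabolism, ACAT1 makes and splits acetoacetyl-CoA and BDH1 interconverts acetoacetate and hydroxybutyrate. ACAT1 measured 10.22, 9.63 and 9.63 in DEGS1 cells, 10.21, 10.26 and 9.77 in SPTLC123 cells and 10.22, 10.50 and 10.44 in scramble cells. The low values were again on the 3 arrays with weak 5' signal: -0.56 ± 0.18 in DEGS1 against scramble (adjusted p = 0.0739) stood against -0.16 without them. BDH1 gave -0.11 in DEGS1 and -0.03 in SPTLC123 cells, neither called.

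Of the 11 measured peroxisomal genes, 3 fell in DEGS1 against scramble, 2 fell in SPTLC123 against scramble and 1 fell in DEGS1 against SPTLC123, where 5.04%, 4.63% and 4.96% of all genes were called lower; none was called higher. Their median log2 differences were -0.25, -0.08 and -0.04. The genes called were 1 enzyme and 3 peroxins.

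ACOX2, the oxidase that opens beta-oxidation of branched chains and bile acid intermediates, measured 7.74, 7.49 and 7.66 in DEGS1 cells, 7.78, 7.95 and 7.55 in SPTLC123 cells and 8.15, 8.38 and 8.31 in scramble cells. Every array of both knockdowns lay below every scramble array. ACOX2 fell by 0.65 ± 0.12 on the log2 scale in DEGS1 cells (63.6% of the scramble level; adjusted p = 0.00722) and by 0.52 ± 0.12 in SPTLC123 cells (69.5%; adjusted p = 0.0185). The knockdowns differed by -0.13 ± 0.12, with a 95% interval of -0.39 to 0.14. Without the arrays with weak 5' signal the differences from scramble were -0.54 and -0.42, no longer called (adjusted p = 0.134 and 0.0624). In SPTLC123 cells the call was also lost without SPTLC123 replicate 1 or 3 or scramble replicate 2 or 3 (adjusted p = 0.0560 to 0.0720).

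The other peroxisomal enzymes were not called in any comparison and none passed an unadjusted p under 0.05. EHHADH and HSD17B4, bifunctional proteins that hydrate and dehydrogenate, gave 0.20 ± 0.10 and 0.01 ± 0.08 in DEGS1 against scramble. ACAA1, the peroxisomal thiolase, gave 0.23 ± 0.11. In SPTLC123 against scramble the 3 lay between 0.00 and 0.07.

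**Figure D2:**
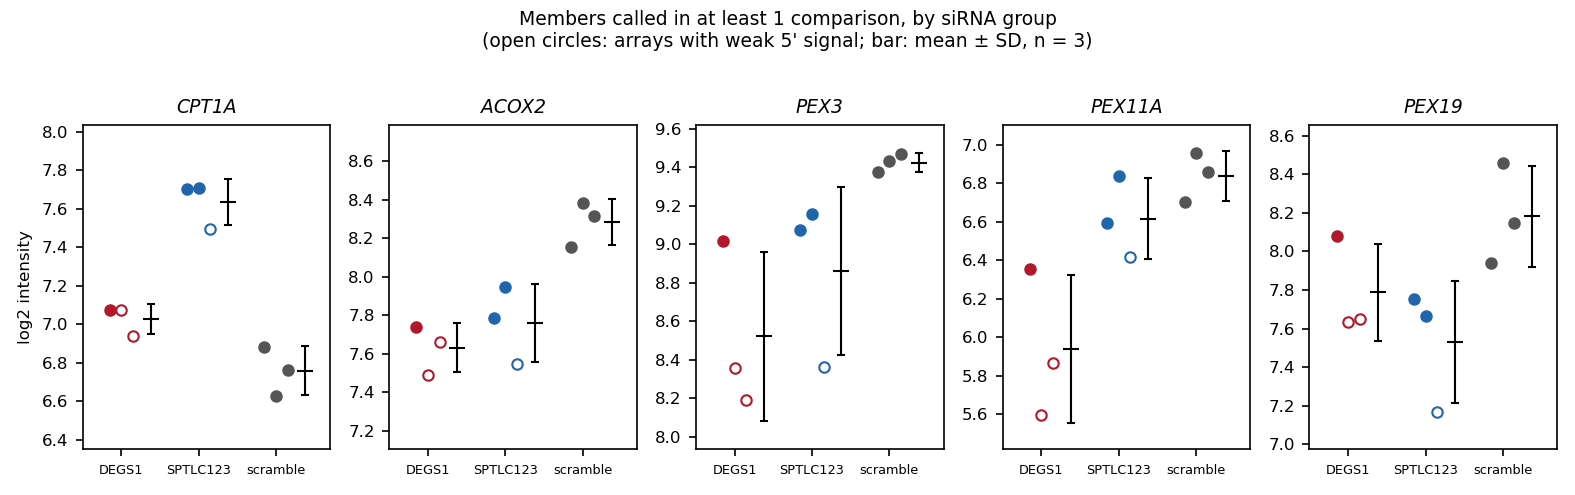
Log2 intensity (y axis) on each array of the 5 genes called in at least 1 comparison, by siRNA group (x axis), with mean ± SD of 3 arrays; open circles are arrays with weak 5' signal. CPT1A was highest in the SPTLC123 arrays, ACOX2 and PEX3 were lower in every knockdown array than in scramble, and in DEGS1 cells the open circles of PEX3, PEX11A and PEX19 lay below the filled one.

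PEX3 and PEX19 bring proteins into the peroxisomal membrane: PEX19 binds them in the cytosol and PEX3 docks PEX19 at the organelle. PEX3 measured 9.02, 8.36 and 8.19 in DEGS1 cells, 9.07, 9.16 and 8.36 in SPTLC123 cells and 9.38, 9.43 and 9.47 in scramble cells. All knockdown arrays lay below the scramble arrays, with the 3 lowest values on the arrays with weak 5' signal. PEX3 fell by 0.90 ± 0.23 in DEGS1 cells (53.5% of the scramble level; adjusted p = 0.0320); in SPTLC123 cells it was -0.56 ± 0.23 (adjusted p = 0.164), and the knockdowns differed by -0.34 ± 0.23 (adjusted p = 0.420).

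The call on PEX3 was lost without DEGS1 replicate 2 or 3 or any 1 scramble array (adjusted p = 0.0681 to 0.137), and without the arrays with weak 5' signal the difference was -0.41 (adjusted p = 0.193). A second, dimmer PEX3 probe set fell by 0.74 ± 0.12 in DEGS1 against scramble (adjusted p = 0.0113 with every probe set tested on its own), where the set used above had an adjusted p of 0.0676. The third, the dimmest, gave -0.05.

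PEX19 measured 8.08, 7.63 and 7.65 in DEGS1 cells, 7.75, 7.67 and 7.17 in SPTLC123 cells and 7.94, 8.46 and 8.15 in scramble cells. Every SPTLC123 array lay below every scramble array, whereas DEGS1 and scramble arrays overlapped. PEX19 fell by 0.65 ± 0.18 in SPTLC123 cells (63.6% of the scramble level; adjusted p = 0.0468) and was -0.39 ± 0.18 in DEGS1 cells (adjusted p = 0.215). The difference between the knockdowns, 0.26 ± 0.18, was not called (adjusted p = 0.451). The call in SPTLC123 cells stood close to the threshold and was lost in 11 of 19 other settings, with an adjusted p of up to 0.164; without the arrays with weak 5' signal the difference was -0.47 (adjusted p = 0.105).

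PEX11A, which helps peroxisomes elongate and divide, measured 6.35, 5.59 and 5.87 in DEGS1 cells, 6.59, 6.84 and 6.42 in SPTLC123 cells and 6.70, 6.96 and 6.86 in scramble cells. The DEGS1 arrays lay below all 6 others, and the SPTLC123 and scramble arrays overlapped. It fell by 0.90 ± 0.18 in DEGS1 against scramble (53.6% of the scramble level; adjusted p = 0.00981) and by 0.68 ± 0.18 in DEGS1 against SPTLC123 (adjusted p = 0.0368). In SPTLC123 cells it was -0.22 ± 0.18 (adjusted p = 0.516), with a 95% interval of -0.61 to 0.17.

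Without the arrays with weak 5' signal, PEX11A was -0.48 in DEGS1 against scramble, no longer called (adjusted p = 0.218). The knockdowns differed by -0.36 among the arrays with good 5' signal and by -0.69 among those with weak signal, and the call between them was lost in 9 of 19 other settings. A second PEX11A probe set of similar brightness gave -0.56 ± 0.14 in DEGS1 against scramble (adjusted p = 0.0522) and fell by 0.70 ± 0.14 in DEGS1 against SPTLC123 (adjusted p = 0.0219).

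The remaining peroxins serve the import of matrix enzymes. PEX5, the main import receptor, measured 8.01, 7.98 and 8.15 in DEGS1 cells, 8.31, 8.27 and 8.45 in SPTLC123 cells and 8.27, 8.38 and 8.26 in scramble cells. The DEGS1 arrays lay below all others by a small margin, with differences of -0.25 ± 0.09 from scramble and -0.29 ± 0.09 from SPTLC123, neither called (adjusted p = 0.114 and 0.0784). The other, dimmer PEX5 probe set gave -0.80 ± 0.37 and -0.70 ± 0.37 in these comparisons, neither called. PEX7, the receptor for a second class of import signal, had the widest interval of the list: -0.55 ± 0.31 in DEGS1 against scramble, with a 95% interval of -1.24 to 0.14. It measured 7.0, 6.21 and 5.91 in DEGS1 cells, 6.98, 7.01 and 5.92 in SPTLC123 cells and 6.76, 7.21 and 6.78 in scramble cells, so its 3 lowest values fell on the arrays with weak 5' signal; without them the difference was 0.08 in both comparisons with scramble. PEX6, an ATPase that recycles PEX5, gave -0.11 and -0.08, and PEX14, which docks PEX5 at the membrane, gave 0.11 and 0.10.

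Of the 5 genes listed as PPAR-alpha targets or regulators alone, limma called 0 in all 3 comparisons (1, 1 and 0 at an unadjusted p under 0.05). Over all 19775 genes, 9.7%, 9.94% and 8.66% were called, and 4877, 4524 and 4480 passed an unadjusted p under 0.05. Genes of the mitochondria and peroxisomes, CPT1A and PEX11A among them, were counted by organelle whether or not PPAR-alpha drives them. The count over the 5 genes therefore does not cover the whole program. FABP1, the liver fatty acid binding protein, measured 13.07, 12.94 and 12.77 in DEGS1 cells, 13.13, 13.31 and 13.04 in SPTLC123 cells and 12.91, 13.42 and 12.88 in scramble cells, and the groups overlapped. ANGPTL4, a secreted inhibitor of lipoprotein lipase, gave -0.07 and -0.17 against scramble in DEGS1 and SPTLC123 cells. PDK4, the kinase that turns pyruvate dehydrogenase off, gave -0.45 ± 0.13 and -0.41 ± 0.13 (adjusted p = 0.0521 and 0.0690). PDK4, the coactivator PPARGC1A and the pantetheinase VNN1 stayed under the median probe set in every group, at means from 2.88 to 3.98.

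The arrays with weak 5' signal separated these genes within a group. In DEGS1 cells 2 such arrays and 1 other, and in SPTLC123 cells 1 such array and 2 others, allow the contrast inside each knockdown. In both groups the weak arrays lay below the others for 21 of the 35 genes (60%), where this held for 23.7% of all genes and for 28.8% of the 12638 genes brighter than the median probe set. It held for 12 of 17 mitochondrial genes, both genes of the 2 organelles, 5 of 11 peroxisomal genes and 2 of 5 PPAR-alpha targets. The median difference over the 35 genes was -0.16 in DEGS1 and -0.19 in SPTLC123 cells, where over all genes it was -0.01 in each.

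**Figure D3:**
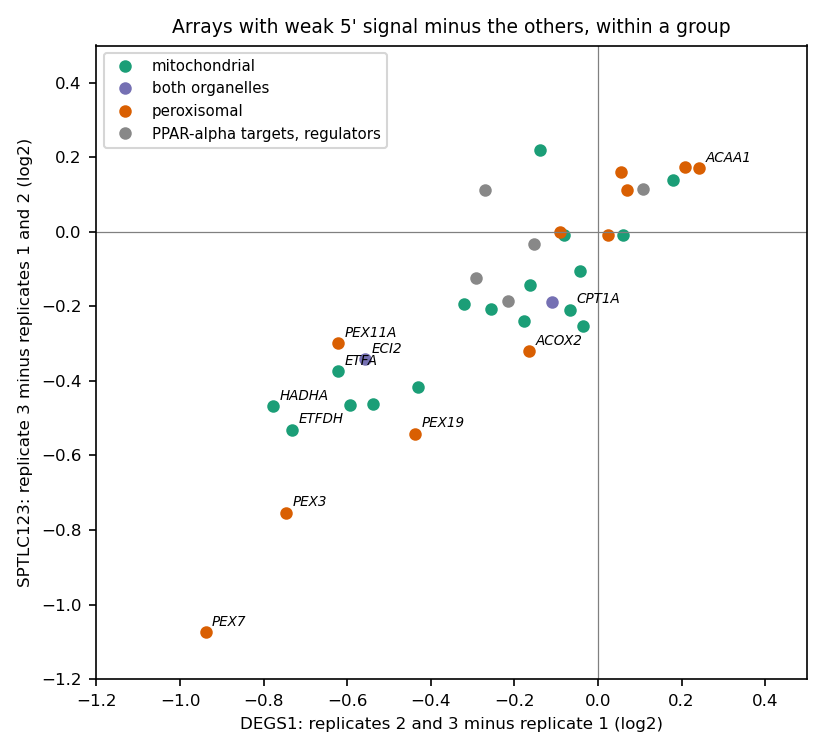
Log2 difference between arrays with weak 5' signal and the others within DEGS1 cells (x axis) and within SPTLC123 cells (y axis), 1 point per gene, coloured by organelle. Most points lie in the lower left, with PEX7 at -0.94 and -1.07 the farthest.

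PEX7 showed the largest such difference, at -0.94 in DEGS1 and -1.07 in SPTLC123 cells, followed in DEGS1 cells by HADHA (-0.78 and -0.47), PEX3 (-0.75 and -0.75) and ETFDH (-0.73 and -0.53). All 3 electron transfer genes and all 4 genes of unsaturated chains were lower on the weak arrays in both groups. ACAA1 (0.24 and 0.17) and PEX14 (0.21 and 0.18) were higher on them. CPT1A differed by -0.07 and -0.21. Without the weak arrays 1 DEGS1 array remained, and the 35 genes had a median log2 difference of -0.03 in DEGS1 against scramble. That of all genes was -0.01. In SPTLC123 against scramble the medians were -0.06 for the 35 genes and -0.02 for all genes, while CPT1A kept a difference of 0.95.

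**Figure D4:**
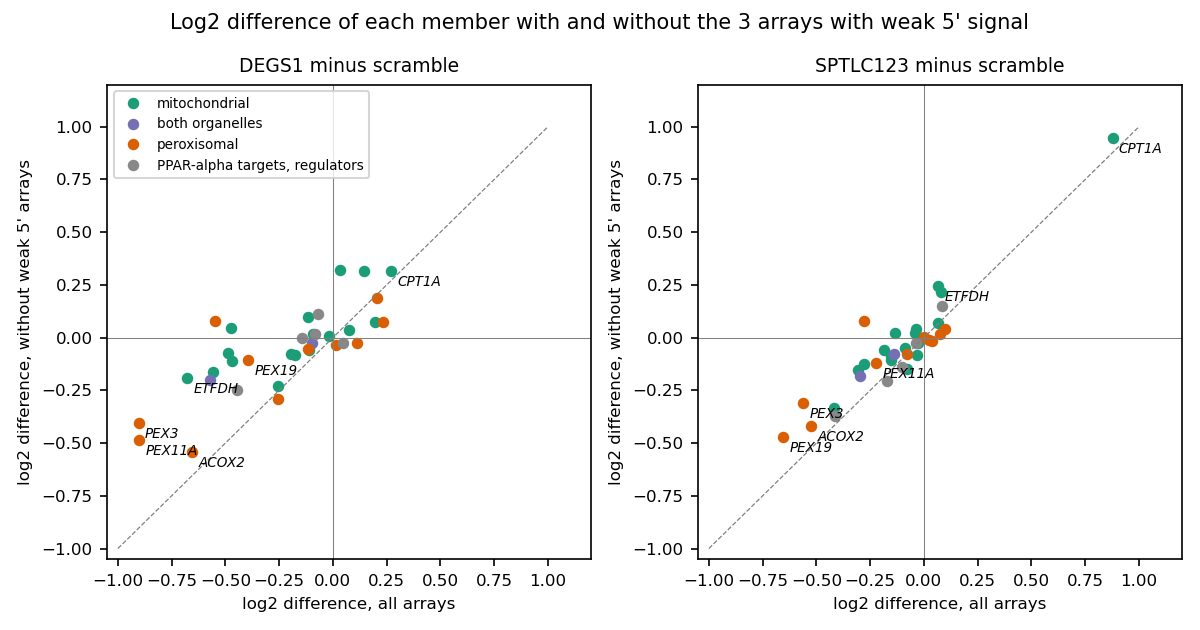
Log2 difference from scramble with all arrays (x axis) and without the 3 arrays with weak 5' signal (y axis), for DEGS1 (left) and SPTLC123 (right), 1 point per gene; the dashed line marks equal values. Most negative points lie above the line, nearer to 0 on the y axis (PEX3 at -0.90 and -0.41 on the left), while CPT1A on the right stays at 0.88 and 0.95.

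Further genes of the same pathways were drawn from a second list of 46, of which 36 were measured. DEGS1 against scramble called 2 higher and 2 lower, SPTLC123 against scramble 2 higher and 3 lower, and DEGS1 against SPTLC123 3 higher and 3 lower. These are 4, 5 and 6 of 36 genes, where 9.7%, 9.94% and 8.66% of all genes were called. The medians were 0.05, 0.02 and 0.02 on the log2 scale.

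Among the enzymes, CROT, which joins shortened chains to carnitine for export from the peroxisome, measured 8.31, 8.47 and 8.66 in DEGS1 cells, 8.77, 8.63 and 8.99 in SPTLC123 cells and 8.17, 8.23 and 8.17 in scramble cells. All knockdown arrays lay above the scramble arrays, and CROT rose by 0.60 ± 0.12 in SPTLC123 cells (adjusted p = 0.00767). CAT, the catalase that removes peroxide from beta-oxidation, measured 11.85, 11.86 and 11.84 in DEGS1 cells, 12.02, 11.98 and 11.99 in SPTLC123 cells and 11.48, 11.67 and 11.54 in scramble cells. It rose by 0.43 ± 0.08 in SPTLC123 cells (adjusted p = 0.00806) and was 0.28 ± 0.08 in DEGS1 cells (adjusted p = 0.0588). Both calls in SPTLC123 cells were kept in all 19 other settings. ACSL1, which activates long chains with coenzyme A, measured 6.95, 6.74 and 6.70 in DEGS1 cells, 7.48, 7.42 and 7.43 in SPTLC123 cells and 7.0, 7.44 and 7.21 in scramble cells; it fell by 0.42 ± 0.12 in DEGS1 against scramble (adjusted p = 0.0484), a call lost in 15 of 19 other settings, and by 0.64 ± 0.12 in DEGS1 against SPTLC123 (adjusted p = 0.00676).

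Some peroxisomal membrane proteins fell and others did not. Of 7 measured peroxins and membrane proteins of the second list, 4 were positive and 3 negative in DEGS1 against scramble. There limma called 0 of them (4 at an unadjusted p under 0.05). In SPTLC123 against scramble 2 were positive and 5 negative, with 2 called lower. Of all genes, 9.7% and 9.94% were called in these comparisons, and 4.63% were called lower in SPTLC123 against scramble. An unadjusted p under 0.05 was reached by 4877 of 19775 genes in DEGS1 against scramble. PEX26 gave 0.42 against scramble in both knockdowns, not called. PXMP2, a channel of the peroxisomal membrane, measured 8.57, 7.88 and 7.72 in DEGS1 cells, 7.65, 7.69 and 7.22 in SPTLC123 cells and 8.59, 8.75 and 8.50 in scramble cells. The SPTLC123 arrays lay below all scramble arrays, and PXMP2 fell by 1.10 ± 0.20 (adjusted p = 0.00611), or by 0.95 without the arrays with weak 5' signal. In DEGS1 cells the same gene was -0.56 ± 0.20 (adjusted p = 0.113), and the value of the 1 array with good 5' signal lay among those of scramble. ABCD3, an acyl-CoA transporter of this membrane, fell by 0.68 ± 0.16 in DEGS1 and by 0.59 ± 0.16 in SPTLC123 cells (adjusted p = 0.0217 and 0.0381); without the weak arrays these were -0.30, not called, and -0.48, called (adjusted p = 0.413 and 0.0360). The ABCD3 calls were lost in 7 and 8 of 19 other settings: in DEGS1 cells without DEGS1 replicate 2 or 3 or scramble replicate 2 or 3 (adjusted p = 0.0718 to 0.10), and in SPTLC123 cells without SPTLC123 replicate 1 or 3 or any 1 scramble array (adjusted p = 0.0773 to 0.128). PXMP4 fell by 0.42 ± 0.10 in SPTLC123 cells (adjusted p = 0.0244), a call lost in 7 of 19 other settings, among them leaving out SPTLC123 replicate 3 or any 1 scramble array; it was -0.34 without the weak arrays (adjusted p = 0.0703) and -0.14 with averaged probe sets (adjusted p = 0.472).

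Among the regulators, PPARA, the receptor PPAR-alpha itself, measured 7.37, 7.18 and 7.31 in DEGS1 cells, 7.95, 8.19 and 8.06 in SPTLC123 cells and 7.27, 7.96 and 7.39 in scramble cells. DEGS1 arrays lay below all SPTLC123 arrays and overlapped with scramble. PPARA was lower by -0.78 ± 0.16 in DEGS1 against SPTLC123 (adjusted p = 0.0114) and was 0.53 ± 0.16 in SPTLC123 against scramble, which was not called (adjusted p = 0.0600). Without the weak arrays PPARA was -0.70 in DEGS1 against SPTLC123, no longer called (adjusted p = 0.291). Its partner RXRA measured 9.30, 9.55 and 9.67 in DEGS1 cells, 9.05, 9.07 and 9.38 in SPTLC123 cells and 8.75, 8.74 and 8.82 in scramble cells. RXRA rose by 0.73 ± 0.12 in DEGS1 against scramble (adjusted p = 0.00399), was higher on the weak arrays, and was 0.53 without them (adjusted p = 0.0916). Its other, dimmer probe set was -0.30 ± 0.16 in DEGS1 and -0.58 ± 0.16 in SPTLC123 cells, neither called, and with both sets averaged RXRA was 0.215 in DEGS1 cells, not called (adjusted p = 0.211). CREB3L3, a liver transcription factor of fasting, rose by 0.36 ± 0.10 in DEGS1 against scramble (adjusted p = 0.0483), a call lost in 15 of 19 other settings, and by 0.49 ± 0.10 in DEGS1 against SPTLC123 (adjusted p = 0.0133).

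**Figure D5:**
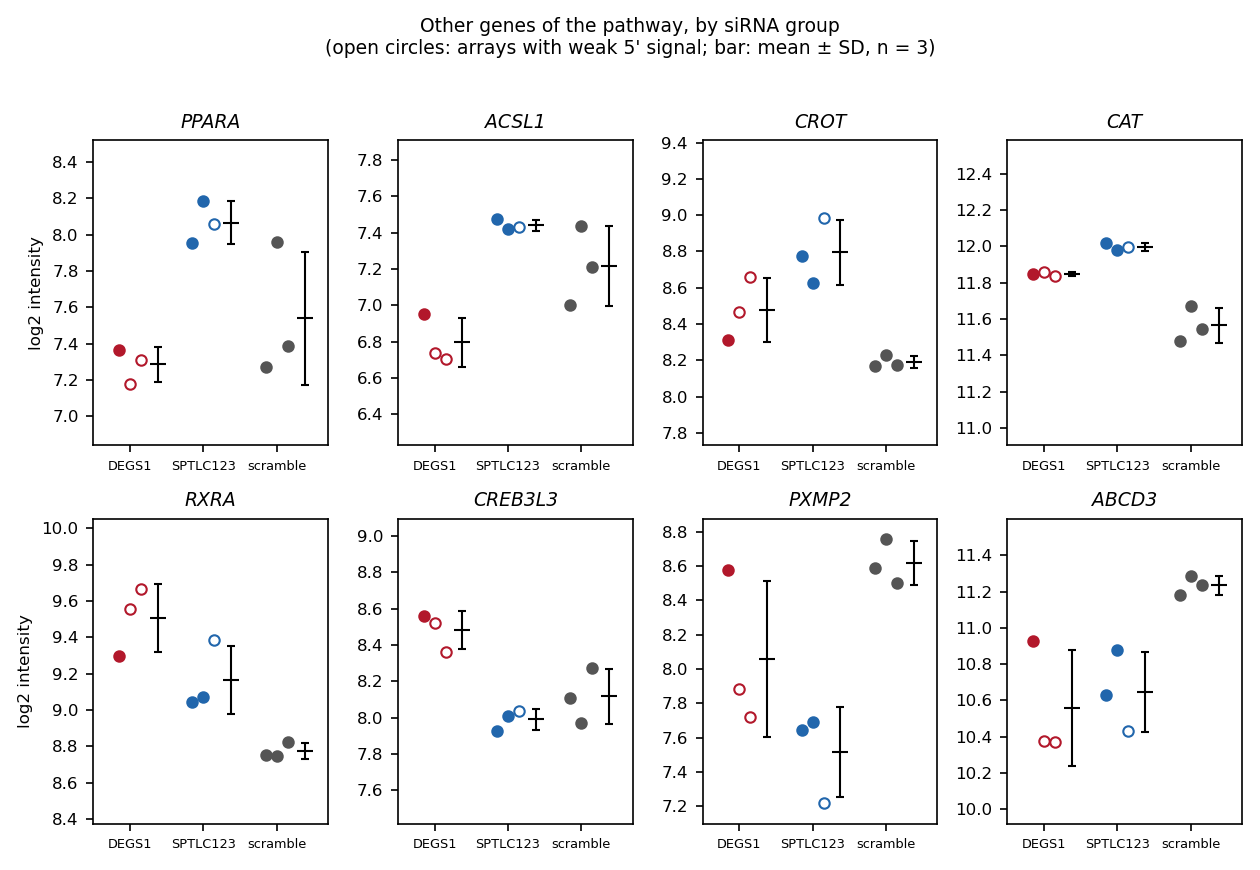
Log2 intensity (y axis) on each array of 8 genes of the second list, by siRNA group (x axis), with mean ± SD of 3 arrays; open circles are arrays with weak 5' signal. CROT and CAT were higher in all knockdown arrays than in scramble, ABCD3 was lower in all of them, and PPARA was higher in the SPTLC123 than in the DEGS1 arrays.

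Other calls of that list lay between the knockdowns. HACL1, a lyase of peroxisomal alpha-oxidation, was lower by -0.44 ± 0.12 in DEGS1 against SPTLC123 (adjusted p = 0.0428). GNPAT, the first enzyme of plasmalogen synthesis, and PEX10, a ligase of the peroxisomal import machinery, were higher in DEGS1 cells by 0.37 ± 0.09 and 0.51 ± 0.11 (adjusted p = 0.0323 and 0.0168). The calls on HACL1, GNPAT and PEX10 were lost in 10, 9 and 5 of 19 other settings, with an adjusted p of up to 0.396, 0.291 and 0.468. All 3 were lost without DEGS1 replicate 2 or 3 or SPTLC123 replicate 1, HACL1 and GNPAT also without SPTLC123 replicate 2 or scramble replicate 3, and HACL1 without scramble replicate 1; without the weak arrays the differences were -0.33, 0.34 and 0.29. For HACL1 the DEGS1 values were 9.66, 9.39 and 9.36 and the SPTLC123 values 9.94, 10.03 and 9.75, which did not overlap.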

How the data were processed

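The deposited values are probe-set intensity on a linear scale, normalized by the authors. RMA, GCRMA 2.12.1 and limma 2.14.7 are named in the submitters' processing notes without saying what each did, so the normalization method (RMA or GCRMA) was not settled. The table holds 54675 probe sets, 62 of them controls, with array medians of 27.92 to 30. The deposited intensity was turned into log2 values with no pseudocount. Of the probe sets, 41091 carried 1 gene symbol in GEO's platform annotation, 1801 several and 11721 none; each of 19775 genes was represented by its brightest single-gene probe set. limma 3.58.1 in R 4.3.3 (lmFit, eBayes) fitted 1 mean per group over 9 arrays (6 residual degrees of freedom), with two-sided tests and Benjamini-Hochberg adjustment over all genes. A 5' signal was called weak where the actin 3' minus 5' log2 difference exceeded 1. Values after ± are SE for differences. Arrays have no read depth; their number limits the precision.

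The genes, the second list and the marker lists were chosen with earlier results of these data known, and the promoter motifs after the sequences were seen. Every listed gene is accounted for, and of the second list those called in at least 1 comparison are named. Alternatives were averaging the probe sets of a gene, every probe set on its own, leaving dim genes out, median centring, quantile normalization, robust eBayes with a variance trend (statmod 1.5.0), only the 2 groups compared, the replicate number as a block, actin as a covariate, no arrays with weak 5' signal, and leaving out each array.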

Additional observations from a re-analysis of the deposited data

How the results depend on the processing

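Across 19 other settings no called difference changed sign, and none of the 8 calls among the 35 genes held in all 19. Of the genes not called, 25 of 32, 29 of 32 and 28 of 33 stayed uncalled throughout in DEGS1 against scramble, SPTLC123 against scramble and DEGS1 against SPTLC123. In DEGS1 against scramble the 3 calls became 5 with a variance trend and robust eBayes, 5 with the replicate block and 0 without the arrays with weak 5' signal (limma, 6 at an unadjusted p under 0.05), and lay between 2 and 10 with each array left out; the 10 came without DEGS1 replicate 1, the one DEGS1 array with good 5' signal, and added CPT2, HADHA, ETFA, ETFDH, ACAT1, ECI2 and PDK4, and 5 came without SPTLC123 replicate 3. The 1918 genes called there over the whole table became 1248 with every probe set on its own, 1114 with actin as a covariate and 259 without the weak arrays, and 801 to 3614 with each array left out. In SPTLC123 against scramble the 3 calls became 1 with averaged probe sets and 1 without the weak arrays, and 1 to 5 with each array left out (1 without SPTLC123 replicate 1 or 3 or scramble replicate 2 or 3, 5 without scramble replicate 1); the whole table gave 1178 to 2381 called genes, the fewest without SPTLC123 replicate 1. In DEGS1 against SPTLC123 the 2 calls became 1 with averaged probe sets, 1 with every probe set on its own, 1 with only the 2 groups in the fit, and 0 without the weak arrays (limma, 1 at an unadjusted p under 0.05). With each array left out they numbered 1 to 6, the 6 without DEGS1 replicate 1, 3 without SPTLC123 replicate 3, and 1 without DEGS1 replicate 2 or 3, SPTLC123 replicate 1 or 2, or scramble replicate 3. The whole table there gave 281 genes without the weak arrays and 841 to 2911 with each array left out. Actin as a covariate gave 3, 4 and 3 calls among the 35 genes, adding PEX3 in SPTLC123 against scramble (-0.37, adjusted p = 0.0248) and PEX5 in DEGS1 against SPTLC123 (-0.33, adjusted p = 0.0436). Of the second list, 1 to 9, 3 to 7 and 1 to 10 genes were called in the 3 comparisons with each array left out, the most without DEGS1 replicate 1 in each; the fewest came without DEGS1 replicate 2 or 3 or scramble replicate 2, without SPTLC123 replicate 3 or scramble replicate 1 or 3, and without DEGS1 replicate 2. Median centring gave 548 higher and 1181 lower genes in DEGS1 against SPTLC123, where 732 and 981 were reported, and in SPTLC123 against scramble it did not call PEX19, ABCD3 and PXMP4 (adjusted p = 0.0836, 0.0721 and 0.0600). Same-numbered arrays did not consistently deviate together, with correlations of deviations from -0.28 to 0.54. The highest, 0.54, joined replicate 3 of DEGS1 and of SPTLC123, both of them arrays with weak 5' signal. For DEGS1 replicate 1 it was 0.40 with SPTLC123 replicate 1, against 0.41 with another SPTLC123 array. The numbers were not taken to pair samples. With the block, limma also called CPT2 and ECI2 in DEGS1 against scramble (adjusted p = 0.0407 and 0.0415). It did not call PEX11A in DEGS1 against SPTLC123 (adjusted p = 0.0509). The causes of these shifts were not tested. Signal near background limits ACADL, PDK4, PPARGC1A and VNN1.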

Other observations

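Other probe sets of the same genes gave values that the brightest set did not. The 23 genes with more than 1 probe set had 32 others, of which 21, 19 and 19 had the sign of the set used in DEGS1 against scramble, SPTLC123 against scramble and DEGS1 against SPTLC123; 2, 1 and 2 of them were called by limma, none against a call of the set used. ACAA2, the mitochondrial thiolase, had a dimmer set that rose by 0.72 ± 0.13 in DEGS1 and by 0.62 ± 0.13 in SPTLC123 cells against scramble (adjusted p = 0.0166 and 0.0254 with every probe set tested on its own), while another, also dimmer, set gave -0.75 ± 0.42 and -0.38 ± 0.42, not called, and the set used 0.04 and 0.08. PEX3's second set fell by 0.62 ± 0.12 in DEGS1 against SPTLC123 (adjusted p = 0.0224), where the set used was -0.34. PEX19's other set gave -0.39 ± 0.14 in DEGS1 and -0.46 ± 0.14 in SPTLC123 cells against scramble, neither called (adjusted p = 0.137 and 0.0903).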
